A study of Homo sapiens with 80 samples.

Results

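Gene expression was compared between Jurkat T cells kept at 9 g for 9 min (hypg9) and Jurkat T cells kept at 1 g (Ctrl). Jurkat clone E6-1 is an established human T cell leukaemia line and is a single clone, so all libraries come from the same genetic background. The comparison used 12 of the 80 libraries of the series, 6 of hypg9 (libraries 37 to 42) and 6 of Ctrl (libraries 1 to 6), and they were chosen by their group labels alone. Cells of both groups spent 15 min inside a pipette, the Ctrl cells all of it at 1 g and the hypg9 cells the last 9 min of it in a pipette centrifuge at 9 g, and were then eluted directly into lysis buffer. Groups exposed to 9 g for 5 min (hypg5) and 7 min (hypg7), also with 15 min in the pipette in all, and a second 1 g control of 60 min (Ctrl60) were used for comparison, each with 6 libraries. The count columns of Ctrl60 are named for a control plus HEPES, a buffer, while its labels give Ctrl60 as the treatment, so an added buffer and the longer stay cannot be told apart in this group. Neither the labels nor the methods say whether the libraries of a group came from separate cultures, so each p-value measures the spread between these libraries, which may be technical.

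RNA was measured after removal of ribosomal RNA and without selection of poly-A tails. Such libraries cover mature mRNA together with unspliced transcripts, antisense and intergenic long noncoding RNA (lncRNA), and part of the small structured RNAs. The structured RNAs include the small nuclear RNAs (snRNAs) of the spliceosome, which removes introns, the small nucleolar RNAs (snoRNAs), which guide chemical modification of ribosomal RNA, and the Y RNAs, which bind the Ro60 protein. Mitochondria carry a genome of their own, which is transcribed from both strands as long precursors and cut into mRNAs, ribosomal RNAs and tRNAs. Centrifugation presses a cell and its nucleus against a support, and adhesion receptors, the actin cytoskeleton, stretch-gated channels and the proteins that tie the cytoskeleton to the nuclear lamina are known to carry mechanical load.

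The libraries held 27.31 to 36.08 M counted read pairs in Ctrl and 29.18 to 40.27 M in hypg9, where M stands for 1000000. All 14 T cell markers were present, with summed levels of 5120 to 5320 counts per 1000000 (CPM) in Ctrl and 5050 to 5310 in hypg9. Markers of myeloid cells summed to no more than 1.18 CPM in any library, with all 10 of the list under 1 CPM and S100A8 at 0. Natural killer cell markers summed to 10.8 to 11.8 CPM in Ctrl and 10.9 to 12.9 in hypg9, with KLRF1 and NCR1 at 0. B cell markers summed to 102 to 114 and 101 to 109 CPM, nearly all of it from CD79A and BLK, with CD22 at 0. Erythroid and adherent cell markers summed to 204 to 222 and 208 to 228 CPM, nearly all of it from PECAM1, with EPCAM, COL1A2, HBB and CDH1 among those at 0. CPM is a share of a library, so fewer cells of a type and less RNA per cell cannot be told apart from it. The share of counts on the mitochondrial genome was 1.487% ± 0.103 in Ctrl and 1.85% ± 0.149 in hypg9 (SD, n = 6 each), with no overlap between the groups (exact permutation test over libraries, two-sided, p = 0.00216, and 0.013 after Benjamini-Hochberg adjustment over 6 library measures). No split of 12 libraries into 6 and 6 can give a lower p. The other measures, which were the total counts, the number of genes with a count, the shares of the 10 highest genes and of protein-coding genes and the mean GC content, gave adjusted p-values of 0.585 or more in the same exact test.

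At 9 min, 3215 of the 16385 genes tested (19.6%) differed between hypg9 and Ctrl at an adjusted p under 0.05 in edgeR's quasi-likelihood test with Benjamini-Hochberg adjustment, the test behind all calls given here. Of these, 1849 genes (11.3% of those tested) were higher and 1366 (8.34%) were lower in hypg9. The changes were small. The median upregulated gene was 1.28-fold higher (log2 fold change 0.36) at a mean level of 6.63 CPM, and the median downregulated gene was 1.18-fold lower (log2 fold change -0.23) at 41.5 CPM. Among the upregulated genes, 901 (48.7%) had no overlap of CPM between the 6 libraries of each group, and among the downregulated genes 627 (45.9%), against 9.69% of all genes tested. Across genes, the log2 fold change had a Spearman correlation of -0.269 with the mean CPM, of 0.314 with the GC content of the exons and of -0.053 with the exon length. These 3 values describe genes of the same 12 libraries and carry no test.

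**Figure D1:**
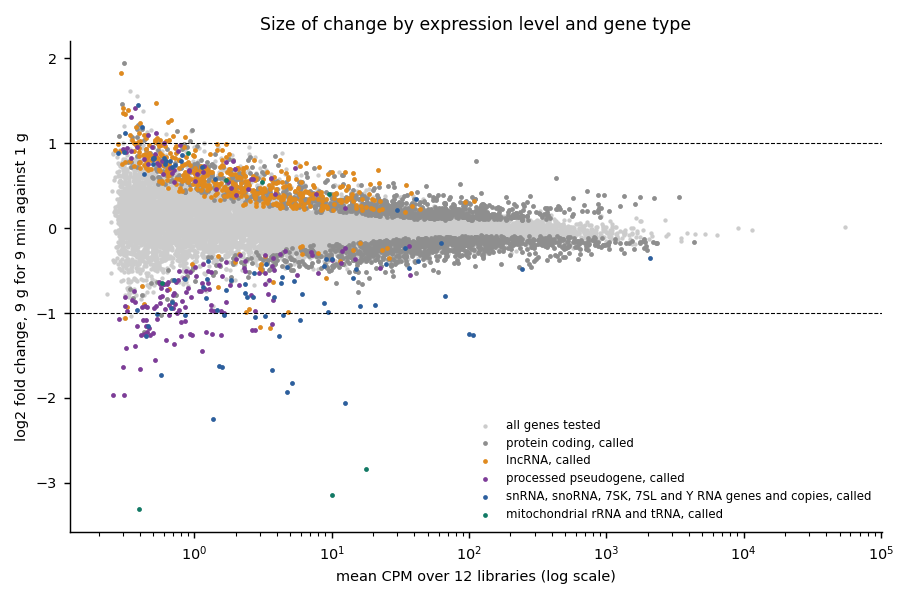
Log2 fold change of hypg9 against Ctrl (vertical axis) against the mean CPM over the 12 libraries (horizontal axis, log scale) for the 16385 genes tested. Called genes are coloured by annotated type and dashed lines mark 2-fold. Genes past 2-fold upwards lie at the left of the plot, and the ones past 2-fold downwards and above 10 CPM are snRNAs and mitochondrial ribosomal RNAs.

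The direction of the calls varied with GC content. When the genes were divided into 5 equal bins of exon GC content, the lowest bin (23.5% to 42.4%) had 90 genes upregulated and 300 downregulated, and the highest (58.5% to 83.3%) had 575 and 114. A correction that removed the trend of each library with GC content brought the correlation of the fold change with GC to -0.00634. With it, 4662 genes (28.5%) were called, 1988 of them higher (12.1%) and 2674 lower (16.3%). The upward calls largely stayed, with 1568 of the 1849 (84.8%) still higher, and so did 1238 of the 1366 downward calls (90.6%). No gene was called in opposite directions by the fits with and without the correction. The 1436 genes called lower only with the correction had a median GC content of 57.2%, and the 420 called higher only with it 42.3%. The 281 genes called higher only without the correction had a median of 59.4%, and the 128 called lower only without it 41.0%. The mean GC content weighted by counts was 53.05% ± 0.228 in Ctrl and 53.21% ± 0.292 in hypg9 (SD, n = 6 each, exact permutation p = 0.314), so the groups overlapped in this measure. Upward calls made up 71.8% of the 918 calls on chromosomes 16 to 22 and 51.6% of the 2278 on chromosomes 1 to 15 and X without the correction, and 45.7% and 41.0% with it.

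**Figure D2:**
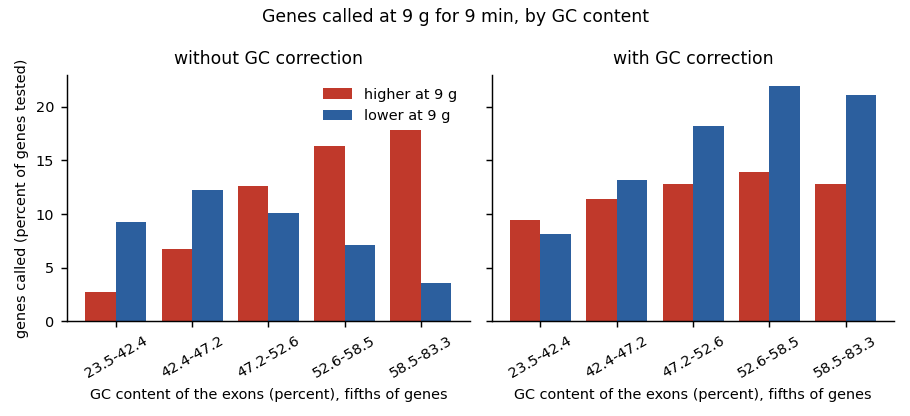
Percent of the genes tested in each of 5 equal bins of exon GC content that were called higher (red) or lower (blue) in hypg9 than in Ctrl, without (left) and with (right) the GC correction. Without it, the share called higher climbs from 2.78% in the lowest bin to 17.8% in the highest while the share called lower ends at 3.53%. With it, the share called higher runs from 9.4% to 13.9% and the share called lower from 8.16% to 21.9%.

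Genes whose call depended on the correction were led, at 10 CPM or more, by the following. AC005261.1, an intergenic lncRNA on chromosome 19 with a GC content of 36.4%, had a log2 fold change of 0.43 without the correction (adjusted p = 0.0554) and of 0.57 with it. AC022150.4, a sense intronic transcript that overlaps ZNF83, went from 0.28 (adjusted p = 0.061) to 0.37. TMEM160, with a GC content of 72.2%, went from -0.27 (adjusted p = 0.121) to -0.38, and AKAP9, a scaffold protein of the Golgi and centrosome with a GC content of 37.7%, from -0.48 (adjusted p = 0.0821) to -0.32. In these 4 genes the CPM of the groups overlapped. Conversely, MIR600HG (0.32 without the correction, 0.28 with it), the purinergic receptor gene P2RY11 (0.30 and 0.22), the microRNA locus MIR3609 within TRRAP (-0.44 and -0.31) and SNRPF, a core protein of the spliceosomal snRNPs (-0.32 and -0.20), were called without the correction alone. P2RY11 ranged from 11.06 to 14.08 CPM in Ctrl and from 14.9 to 16.33 in hypg9, and SNRPF from 49.75 to 62.83 in Ctrl and from 38.4 to 49.49 in hypg9. P2RY11 overlaps PPAN and PPAN-P2RY11 and SNRPF overlaps AC090001.2, so their counts are uncertain.

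Past a 2-fold change, 58 genes were higher (0.354% of those tested) and 65 were lower (0.397%). With the GC correction the numbers were 54 (0.33%) and 73 (0.446%), with 46 and 64 genes shared, and all 58 and all 65 were still called. Without a filter on low counts 130 and 142 genes were past 2-fold, and 91 were past it upwards when Ctrl library 2 was left out. The upward group was almost entirely near the lower limit of detection. Its mean levels ran from 0.28 to 1.17 CPM with a median of 0.41, and 57 of the 58 were under 1 CPM. It comprised 14 protein-coding genes, 10 sense intronic lncRNAs, 9 antisense and 7 intergenic lncRNAs, 4 microRNA hairpin loci, 4 processed pseudogenes and 10 genes of other kinds. Of the 58 genes, 20 (34.5%) lie within a longer gene on the same strand, against 7.93% of all genes tested. The downward group ranged up to 106 CPM, with 38 of 65 genes under 1 CPM, and comprised 36 processed pseudogenes, 10 snRNAs, 7 genes or copies of 7SK, 7SL and Y RNAs, 3 snoRNAs and 9 others. Its protein-coding members were TSPAN31 (log2 fold change -1.02) and the histone gene H2BC12L (-1.23), which are named here after their values were seen. At 10 CPM or more no gene was upregulated past 2-fold, and 5 were downregulated (RNU4-1, RNU4-2, RNU5A-1, MT-RNR1 and MT-RNR2). A test against a 2-fold change itself (edgeR's glmTreat) called 0 genes higher and 5 lower, with 46 genes at an unadjusted p under 0.05. Its counts cover all genes tested, whatever their level.

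The upregulated genes past 2-fold with the highest levels were these 6. RAPSN, which encodes the protein that clusters acetylcholine receptors at the neuromuscular junction, ranged from 0.2694 to 0.8321 CPM in Ctrl and from 1.048 to 1.814 in hypg9 (log2 fold change 1.15 ± 0.23 SE, adjusted p = 0.00262). MSANTD1 ranged from 0.4374 to 0.8682 and from 0.8787 to 1.579 CPM (1.02 ± 0.22, adjusted p = 0.00467). MIR3619, a microRNA hairpin inside the let-7 host transcript MIRLET7BHG on chromosome 22, ranged from 0.4998 to 0.7484 and from 1.021 to 1.708 CPM (1.14 ± 0.17, adjusted p = 0.000414). In these 3 genes every hypg9 library was above every Ctrl library. The antisense lncRNA AC116914.1 rose by a log2 fold change of 1.07 and AC011466.4, a transcript within the inflammasome regulator gene CARD8 on chromosome 19 (48198107 to 48199720), by 1.00. SLFNL1 rose by 1.14, and its groups overlapped, at 0.3234 to 0.6512 CPM in Ctrl and 0.4731 to 1.386 in hypg9. With the GC correction the changes of these 6 genes were 0.96 to 1.08, and MSANTD1 and AC011466.4 were then under 2-fold. The other protein-coding genes past 2-fold upwards, given with their log2 fold changes without the correction and chosen as all of that type, were AL031847.2 (1.94, the largest of all 58), B3GNT8 (1.46), CCER2 (1.03), CLEC3B (1.17), DGCR6 (1.02), RHBDF1 (1.21), LRRN4CL (1.17), TMEM249 (1.08), KRTCAP3 (1.00), the bitter taste receptor TAS2R4 (1.08) and the dopamine receptor DRD4 (1.08). None of these exceeded 1 CPM on average. Counts of MIR3619 and AC011466.4 cannot be told apart from unspliced RNA of the genes around them.

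Part of the spliceosomal snRNAs fell, led at 10 CPM or more by those of U5 and U4. U5 holds the ends of both exons in place through its loop, and U4 is paired with U6 until the spliceosome is activated. The U5 genes RNU5A-1 and RNU5B-1 lie on chromosome 15 and RNU5D-1 on chromosome 1, and RNU5A-1 had the largest decrease of any gene at 10 CPM or more without overlap of the groups. Reads of such related genes may be split between them, so the change of each single gene is uncertain. The paper extracted total RNA with RNeasy Mini kits. How far recovery of such short RNAs during extraction and library preparation shaped these values was not tested.

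RNU5A-1 stood at 20, 17.76, 21.02, 23.11, 20.44 and 18.29 CPM in Ctrl libraries 1 to 6 and at 3.942, 4.375, 3.242, 5.441, 4.755 and 7.477 CPM in hypg9 libraries 37 to 42. Every hypg9 library was thus far below the lowest Ctrl library, with a 4.15-fold lower level (log2 fold change -2.05 ± 0.15 SE, adjusted p = 2.7e-06, and -1.97 with the GC correction). RNU5B-1 averaged 7.43 ± 1.39 CPM in Ctrl and 1.97 ± 0.65 in hypg9 (SD, n = 6 each, log2 fold change -1.93), and RNU5D-1 3.7 ± 0.275 and 1.83 ± 0.565 (-1.04). RNU5B-1 and RNU5D-1 are described as relatives of RNU5A-1, with their values known.

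The U4 genes RNU4-1 and RNU4-2 lie next to each other on chromosome 12 (120293097 to 120293237 and 120291763 to 120291903, GRCh38) and differ at 4 of 141 positions, which are in capitals. They are shown because they were the most abundant genes past 2-fold and because so few letters separate them.
RNU4-1: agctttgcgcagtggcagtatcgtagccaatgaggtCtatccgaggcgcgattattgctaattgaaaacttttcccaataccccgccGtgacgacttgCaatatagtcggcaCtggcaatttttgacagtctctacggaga
RNU4-2: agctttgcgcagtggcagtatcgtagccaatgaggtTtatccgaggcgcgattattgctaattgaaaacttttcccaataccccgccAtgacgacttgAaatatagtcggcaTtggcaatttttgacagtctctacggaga
RNU4-2 was at 143.5, 144.9, 153.5, 156.9, 157.6 and 144.7 CPM in Ctrl and at 52.53, 48.93, 37.69, 55.59, 74.73 and 107.2 CPM in hypg9 (log2 fold change -1.26 ± 0.18 SE, adjusted p = 0.000271). RNU4-1 fell by a similar amount (-1.24), from 139.9 ± 5.9 to 59.3 ± 22.4 CPM. The Ctrl libraries lay close together and the hypg9 libraries spread widely, with libraries 41 and 42 nearest to Ctrl for both genes.

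Of the 16 spliceosomal snRNA genes and variants in the fixed list, which leaves out U5, 8 were lower (50.0%) and none was higher (9 and 0 with the GC correction), against 8.34% lower and 11.3% higher of all genes tested (16.3% and 12.1% with the correction), and the median log2 fold change was -0.49 against -0.00 over all genes tested. RNU6ATAC, the U6 counterpart of the minor spliceosome, fell from 8 ± 1.17 to 2.28 ± 0.767 CPM (log2 fold change -1.83, adjusted p = 1.8e-05), with Ctrl libraries at 6.351 to 9.789 and hypg9 libraries at 1.452 to 3.642 CPM. The U1 variant gene RNVU1-31 fell from 5.85 to 2.46 CPM (-1.27). RNU4ATAC, the U4 counterpart of the minor spliceosome, had overlapping groups (1.312 to 2.877 and 1.223 to 2.063 CPM, log2 fold change -0.31, adjusted p = 0.186). The U1 genes RNU1-1 and RNU1-2 had log2 fold changes of 0.01 each and were not called. Over all 42 genes annotated as snRNA, 14 were lower (33.3%) and 2 higher (4.76%), and the share of all counts that fell on snRNA genes was 0.0392% ± 0.00208 in Ctrl and 0.0199% ± 0.00521 in hypg9.

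The Y RNA genes RNY1, RNY3 and RNY4, which lie in a cluster on chromosome 7, all fell. RNY1 and RNY4 are shown, with the letters that both begin with in capitals.
RNY1: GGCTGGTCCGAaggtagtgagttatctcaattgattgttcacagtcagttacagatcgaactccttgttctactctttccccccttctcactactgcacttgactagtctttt
RNY4: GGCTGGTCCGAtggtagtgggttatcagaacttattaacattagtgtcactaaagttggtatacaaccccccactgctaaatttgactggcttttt
RNY1 was at 4.439 to 6.348 CPM in Ctrl and 1.04 to 2.449 in hypg9 (log2 fold change -1.67, adjusted p = 1.8e-05). RNY4 was at 1.631 to 2.994 and 0.3403 to 0.7735 CPM (-2.25), and RNY3 at 1.662 to 3.173 and 0.4354 to 1.16 CPM (-1.64). How well RNAs this short were recovered was not tested. None of the 3 Y RNA genes overlapped between the groups. By contrast RN7SL1, the RNA of the signal recognition particle that docks ribosomes at the endoplasmic reticulum and the most abundant gene of these libraries, was at 48580 to 62490 CPM in Ctrl and 51600 to 58670 in hypg9 (log2 fold change 0.01, adjusted p = 0.933). Copies of these RNAs elsewhere in the genome went either way. Of 79 genes and copies of 7SK, 7SL and Y RNAs tested, 14 were higher (17.7%) and 16 lower (20.3%), against 11.3% and 8.34% of all genes tested, with a median log2 fold change of 0.30, and of the 61 within a longer gene 11 were higher and 4 lower. The 7SL copy RN7SL472P rose by 1.45 at a mean of 0.388 CPM, and a pair of copies annotated as Y_RNA within IRF1-AS1 and UBE2R2 rose by 1.19 and 1.12, all named after their values were seen. Those at higher levels that fell included RN7SL4P (85.2 ± 4.66 to 48.9 ± 13.2 CPM, log2 fold change -0.80), RN7SKP180 within SLC39A11 (-0.92), RN7SKP80 within RRP7BP (-0.91) and RN7SKP255 (-1.08). Near-identical copies share reads with their source genes, so these values are uncertain. Of the 5 tested genes in the list of 7SL, 7SK, RNase P, RNase MRP, Y and vault RNAs, 4 were lower with and without the GC correction.

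**Figure D3:**
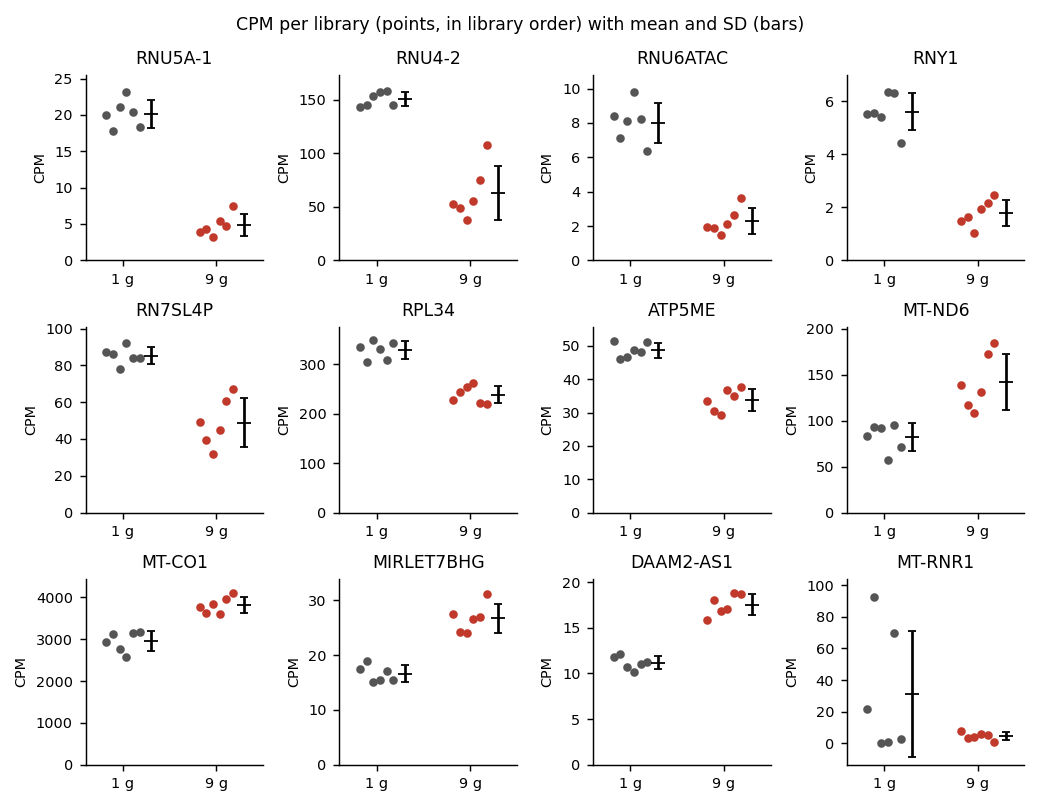
CPM of 12 genes in each library, with Ctrl (1 g, grey) and hypg9 (9 g, red) side by side in library order, each gene on an axis of its own. Bars give the mean and SD of the 6 libraries. Apart from MT-RNR1 no gene shown has overlapping groups, and in RNU4-2 and MT-ND6 libraries 41 and 42 are the highest red points.

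Of 98 snoRNAs and Cajal body RNAs tested, 30 were lower (30.6%, against 8.34% of all genes) and 5 higher (5.1%, against 11.3%). The median log2 fold change was -0.06. With the GC correction 27 were lower (27.6%, against 16.3% of all genes) and 7 higher (7.14%, against 12.1%). SNORA38B fell from 2.2 ± 0.24 to 1.09 ± 0.315 CPM (-1.02) and SNORD13 from 11.4 ± 1.28 to 6.15 ± 1.18 CPM (-0.89), while SNORD3B-2, a copy of the U3 RNA, rose from 36 ± 3.44 to 45.6 ± 4.01 CPM (0.34) and SNORD14E by 0.57. Of 104 genes annotated as snoRNA, 96 lie within a longer gene, and 28 of these were lower. Among genes under 300 bases that lie outside a longer gene, 29 of 140 were lower (20.7%) and 18 higher (12.9%), against 7.86% and 10.8% of genes of 1000 bases and longer. With a correction for exon length in place of that for GC, 34 of the 98 were lower and 4 higher. Of the 140 genes 35 were then lower and 10 higher, against 1411 and 1932 of all 16385 genes tested. Beyond that, the part of RNA length or of its recovery during extraction and library preparation in these values was not tested.

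Processed pseudogenes made up the largest share of genes lower by more than 2-fold. These are intronless copies of mRNAs that were inserted back into the genome, and their reads are hard to separate from those of the parent gene. Of 470 tested, 128 were lower (27.2%) and 46 higher (9.79%), against 8.34% and 11.3% of all genes tested. Among the 36 past 2-fold downwards, 33 are named after 22 genes that were themselves tested. The 36, which were chosen for their decrease, had a median log2 fold change of -1.25, whereas all 470 processed pseudogenes had one of -0.17. The 22 parent genes had a median of -0.17 with a range from -0.43 to 0.00, of which 12 were lower without and 17 with the GC correction. The 8 copies of EEF1A1, the elongation factor that delivers tRNA to the ribosome, had log2 fold changes of -1.07 to -1.66, while EEF1A1 itself stood at 9089 CPM in Ctrl and 9101 in hypg9 (0.00, adjusted p = 0.987). GAPDHP71 fell by 1.96 on the log2 scale. GAPDH, the glycolytic enzyme often used as a reference, had a log2 fold change of -0.09 (5871 to 7070 CPM in Ctrl, 5856 to 6495 in hypg9, adjusted p = 0.299) and was called lower with the correction (-0.14, adjusted p = 0.000692). How aligned reads were divided between them was not tested.

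Most mRNAs of the mitochondrial genome rose. Of its 13 mRNAs, which all encode subunits of the respiratory chain and ATP synthase, 10 were higher (76.9%, against 11.3% of all genes tested) and none lower, with a median log2 fold change of 0.29. With the GC correction the counts were again 10 and 0, with a median of 0.36 and 12.1% of all genes higher. MT-ND6, the mRNA made from the opposite strand to the others, was at 83.55, 92.76, 92.29, 57.04, 95.33 and 71.39 CPM in Ctrl and 138.4, 117.4, 108.7, 131.5, 172.9 and 184.3 in hypg9 (log2 fold change 0.79 ± 0.14 SE, adjusted p = 0.00107). It had the largest increase of any gene at 10 CPM or more. MT-CO1, a core subunit of cytochrome c oxidase, ranged from 2586 to 3174 CPM in Ctrl and from 3601 to 4114 in hypg9 (0.37), MT-ND1 rose by 0.37, MT-ND5 by 0.38 and MT-CYB, the cytochrome of complex III, by 0.27. MT-CO2 (-0.00), MT-CO3 (0.12) and MT-ND3 (-0.23, adjusted p = 0.0782) were not called. The levels are shares of each library, and libraries 41 and 42 were the highest of hypg9 for MT-ND6, MT-ND5 and MT-ND1.

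The ribosomal RNAs of the mitochondrion went the other way on average but not in every library. MT-RNR1 was at 21.73, 92.32, 0.2916, 1.097, 69.7 and 3.028 CPM in Ctrl and at 7.714, 3.257, 3.701, 6.016, 5.246 and 0.6123 CPM in hypg9 (log2 fold change -2.83 ± 0.92 SE, adjusted p = 0.0411). The Ctrl libraries fell into 3 that were above all hypg9 libraries and 3 that were among or below them. MT-RNR2 showed the same scatter (0.3499 to 59.87 CPM and 0.4834 to 3.636 CPM, log2 fold change -3.14, adjusted p = 0.0251). Library preparation removed ribosomal RNA, so these levels are what was left after depletion. Neither call held up when single libraries were left out. MT-RNR1 was no longer called without Ctrl library 1, 2 or 5 or without any 1 of the hypg9 libraries (log2 fold changes of -3.10 to -2.13 over all 12), and MT-RNR2 without Ctrl library 2 (-2.27, adjusted p = 0.071), Ctrl library 5 (-2.89) or hypg9 library 41 (-3.08). Furthermore, with Ctrl60 in place of Ctrl the log2 fold changes were -0.67 for MT-RNR1 and -0.81 for MT-RNR2 (adjusted p = 0.535 and 0.394). MT-TV, a mitochondrial tRNA between them, was at 0.4116 to 0.8981 CPM in Ctrl and 0 to 0.1289 in hypg9 (-3.31, adjusted p = 3.5e-05), the largest decrease of any gene called.

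Nuclear genes for the respiratory chain and for both kinds of ribosome were lower wherever they were called, apart from 5. Of 86 cytosolic ribosomal protein genes, 58 were lower and 1 higher (72 and 1 with the GC correction), with a median log2 fold change of -0.19. RPL34 fell from 328.7 ± 17.6 to 238.5 ± 17.4 CPM (log2 fold change -0.46, adjusted p = 4.9e-05), and RPS24 from 268.8 ± 19.4 to 195.8 ± 13.7 CPM (-0.46). Of 77 mitochondrial ribosomal protein genes, 42 were lower and 2 higher (54 and 2 with the correction), with a median of -0.16, led by MRPL1 (15.9 ± 1.29 to 11 ± 1.7 CPM, -0.52) and MRPS31 (-0.42). Of 80 nuclear-encoded subunits of oxidative phosphorylation, 44 were lower and 2 higher (59 and 2 with the correction), with a median of -0.17. The lower shares of the 3 lists were 67.4%, 54.5% and 55.0%, against 8.34% of all genes tested. ATP5ME, a subunit of ATP synthase, fell from 48.7 ± 2.26 to 33.7 ± 3.37 CPM (-0.53), and UQCRHL, a copy of a complex III subunit, by 0.52. Of the called genes that went up in these 3 lists, MRPL38, MRPL46, NDUFV2 and NDUFA13 each overlap another gene on the same strand, so their counts are uncertain. Among genes for the same complexes, 10 of 13 mitochondrial mRNAs were thus higher and 44 of 80 nuclear ones lower in the same libraries. In 1 model over all 60 libraries of the experiment the lower genes numbered 25, 21 and 16 in the 3 nuclear lists and no mitochondrial mRNA was called higher, and without hypg15 library 75, which has no mitochondrial counts, they numbered 40, 33 and 34, with 9 mitochondrial mRNAs higher.

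Among genes for protein turnover and translation, more were lower than higher and most were not called. Over all genes tested 8.34% were lower and 11.3% higher, and 16.3% and 12.1% with the GC correction. Of 47 proteasome subunits and assembly factors, 20 were lower (42.6%) and 1 higher (30 and 3 with the correction). PSMD7, of the regulatory particle, fell by 0.31 and PSMA4, of the core, by 0.25 on the log2 scale (members lower numbered 12 with scaling by total counts, 7 and 11 in the models over 60 and 59 libraries, and 35 with 3 surrogate variables), while the assembly factor PSMG4 rose from 41.6 ± 1.29 to 51.8 ± 2 CPM (0.32). Of 67 translation initiation and elongation factors, 13 were lower (19.4%) and 1 higher (28 and 3 with the correction), among them EIF5B, which joins the ribosomal subunits (-0.44). The lower ones numbered 5 and 6 in the models over 60 and 59 libraries and 33 with surrogate variables. The gene that rose, EIF4A1, overlaps snoRNA genes and a readthrough gene, so its count is uncertain. Of 23 cytosolic aminoacyl-tRNA synthetases, which load tRNAs, 5 were lower (21.7%) and none higher (12 and 0 with the correction), among them TARS1 (-0.29). Only 1 synthetase was lower with scaling by total counts and 1 and 2 in the models over 60 and 59 libraries, against 14 with surrogate variables. Vacuolar ATPase subunits, which acidify lysosomes, had 6 lower (31.6%) and 1 higher of 19 (6 and 2 with the correction), but 3 lower with scaling by total counts and 1 and 3 in the models over 60 and 59 libraries. Glycolytic enzymes had 1 gene in each direction of 18, HK2 (-0.14) and ENO3 (0.23), but 10 lower with the correction and 7 with surrogate variables. Cholesterol synthesis genes had 1 higher of 25, their regulator SREBF1 (0.12, not called with the correction), and 5 lower with the correction. With scaling by total counts 7 of them were higher and 1 lower, and with surrogate variables 6 were in each direction.

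**Figure D4:**
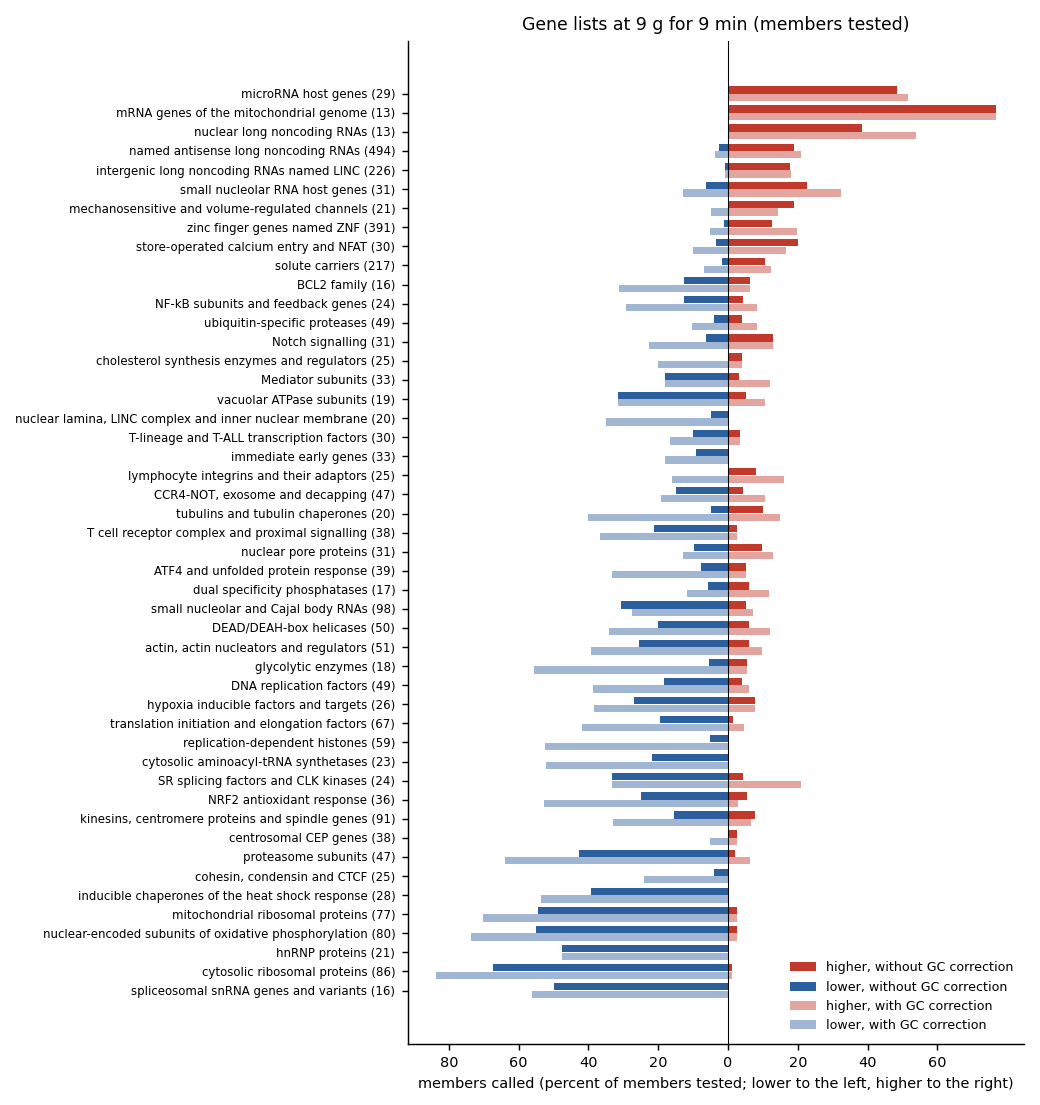
Percent of tested members called higher (red, to the right) or lower (blue, to the left) in hypg9 for gene lists with at least 10 members tested, with the number of members tested in brackets and lists ordered by their median log2 fold change. Dark bars are without and pale bars with the GC correction. Ribosomal protein, oxidative phosphorylation, hnRNP and snRNA lists lie at the lower end, and microRNA host genes, mitochondrial mRNAs and nuclear lncRNAs at the upper end.

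Splicing and RNA-processing proteins had more members lower than higher in each list described here, against 8.34% lower and 11.3% higher of all genes tested (16.3% and 12.1% with the GC correction). Of 21 hnRNP proteins, which package nascent RNA, 10 were lower (47.6%) and none higher with and without the correction, with HNRNPU at 707 ± 41.6 CPM in Ctrl and 571 ± 90.7 in hypg9 (-0.31). With scaling by total counts 2 hnRNP genes were lower, with 3 surrogate variables 19, and in the models over 60 and 59 libraries 1 and 2. Of 24 SR splicing factors and their kinases, 8 were lower (33.3%) and 1 higher, but 2 lower and 3 higher with scaling by total counts. SRSF11 fell by 0.28 and PNISR by 0.29, and SRRM2, a large scaffold of nuclear speckles, rose from 816.3 ± 29.2 to 961.1 ± 49.9 CPM (0.24). With the correction 8 were lower and 5 higher, among the latter the kinases CLK1 (0.27) and CLK4 (0.30). Of 47 genes of mRNA decay (CCR4-NOT, exosome and decapping), 7 were lower (14.9%) and 2 higher (9 and 5 with the correction), with EXOSC10 at -0.21 and CNOT1 at 0.15. Of 50 DEAD/DEAH-box helicases, 10 were lower (20.0%) and 3 higher (17 and 6 with the correction), with DDX10 at -0.26 and DHX58 at 0.27. Of 33 Mediator subunits, which link transcription factors to RNA polymerase II, 6 were lower (18.2%) and 1 higher (6 and 4 with the correction), with MED4 at -0.27 and MED17 at 0.20. With scaling by total counts the balance turned for mRNA decay (4 lower, 6 higher) and Mediator (1 and 4), and 4 helicases were lower and 3 higher.

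Long noncoding RNAs were more often higher than lower. Of 1102 antisense lncRNAs tested, 216 were higher (19.6%) and 23 lower (2.09%), and of 829 intergenic lncRNAs 158 (19.1%) and 7 (0.844%), against 11.3% and 8.34% of all genes. Sense intronic lncRNAs had 71 higher (26.8%) and 1 lower of 265. Transcripts that the annotation marks as awaiting experimental checks had 69 higher (34.5%) and none lower of 200. Protein-coding genes had 1044 higher (8.53%) and 1119 lower (9.15%) of 12233, and with the GC correction 1097 higher and 2388 lower. With the correction 224 antisense lncRNAs were higher and 33 lower, 175 intergenic lncRNAs were higher and 17 lower, and 91 sense intronic lncRNAs were higher and 2 lower. The share of all counts on antisense genes was 0.33% ± 0.015 in Ctrl and 0.372% ± 0.00681 in hypg9 (SD, n = 6 each). On sense intronic genes it was 0.0343% ± 0.00438 and 0.0437% ± 0.000698. The groups did not overlap in either share. On intergenic lncRNA genes the groups overlapped, at 0.286% to 0.374% in Ctrl and 0.362% to 0.39% in hypg9.

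**Figure D5:**
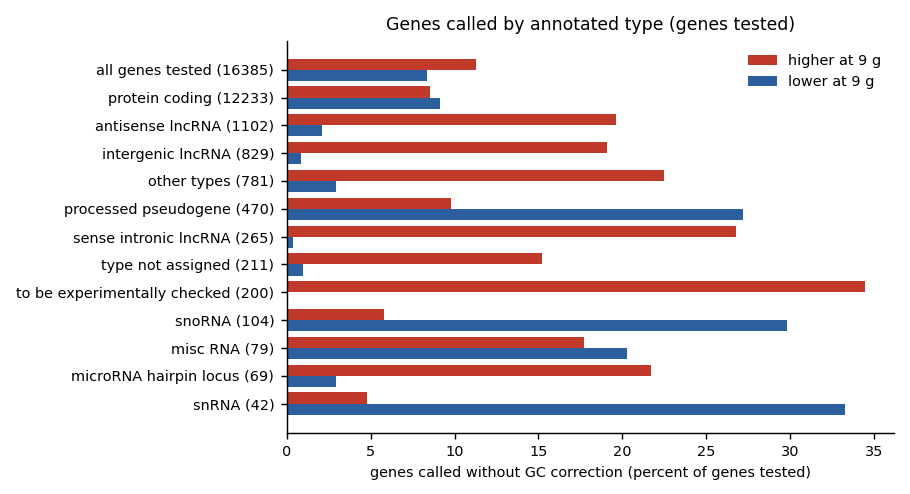
Percent of tested genes called higher (red) or lower (blue) in hypg9 without the GC correction, by annotated gene type, with the number tested in brackets. Antisense, intergenic and sense intronic lncRNAs and microRNA hairpin loci have far longer red than blue bars, while snRNA, snoRNA and processed pseudogenes have longer blue bars. In misc RNA, which stands for the 7SK, 7SL and Y RNA genes and copies, the blue bar (20.3%) is slightly longer than the red one (17.7%).

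Genes inside another gene were also more often higher. Of 1299 tested genes that lie within a longer gene on the same strand, 280 were higher (21.6%) and 67 lower (5.16%), against 1569 (10.4%) and 1299 (8.61%) of the 15086 elsewhere. Among protein-coding genes, those that overlap another gene on the same strand had 468 higher (11.1%) and 259 lower (6.13%) of 4223, and those that overlap none had 576 (7.19%) and 860 (10.7%) of 8010. Unspliced RNA from the surrounding gene can be counted on such genes, so their counts are uncertain, and how much came from the surrounding gene was not tested.

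Host transcripts of microRNAs were the list with the highest median among the noncoding ones. Of 29 tested, 14 were higher (48.3%, against 11.3% of all genes) and none lower (15 and 0 with the GC correction), with a median log2 fold change of 0.32. MIRLET7BHG, the host of let-7 microRNAs on chromosome 22 (46053869 to 46113928), was at 17.57, 19.03, 15.05, 15.39, 17.19 and 15.44 CPM in Ctrl and at 27.49, 24.21, 24.02, 26.56, 27.02 and 31.2 CPM in hypg9. All 6 hypg9 libraries were above the highest Ctrl library (log2 fold change 0.69 ± 0.07 SE, adjusted p = 5.5e-05, and 0.60 with the correction). MIR9-3HG rose from 7.29 ± 0.47 to 11.4 ± 1.04 CPM (0.64), MIR222HG by 0.70, and MIR17HG, the host of the miR-17-92 cluster that is active in leukaemia, by 0.39. These are counts on the annotated exons of host transcripts, not levels of mature microRNAs, which such libraries do not capture.

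Among the other lncRNA lists, 94 of 494 named antisense lncRNAs were higher (19.0%) and 13 lower, and 40 of 226 named LINC genes were higher (17.7%) and 2 lower, against 11.3% and 8.34% of all genes. DAAM2-AS1 rose from 11.2 ± 0.701 to 17.5 ± 1.18 CPM (log2 fold change 0.65, adjusted p = 2e-05), SLFNL1-AS1 from 9.63 ± 0.932 to 15.3 ± 1.82 CPM (0.67) and SCUBE3-AS1 from 1.14 to 2.26 CPM (0.99). MIF-AS1, antisense to the cytokine gene MIF, fell from 10.9 ± 0.547 to 7.3 ± 0.926 CPM (-0.58). The intergenic AL645608.7 rose from 7.81 ± 0.45 to 12.4 ± 1.64 CPM (0.66), LINC00115 by 0.71, and AC027290.2, which lies within VPS37B, by 0.66. Of 13 nuclear lncRNAs, 5 were higher and none lower (7 and 0 with the correction), and 1 and 2 were higher in the models over 60 and 59 libraries. KCNQ1OT1, the imprinted antisense RNA that silences its neighbours, rose by 0.50 and MIAT by 0.42, while MALAT1 had a log2 fold change of 0.02 (adjusted p = 0.951) and NEAT1, the backbone of paraspeckles, one of 0.34 (adjusted p = 0.22). Of 31 host genes of snoRNAs, 7 were higher (22.6%) and 2 lower (10 and 4 with the correction), with SNHG5 at 0.41, SNHG26 at 0.30, SNHG25 at -0.30 and SNHG6 at -0.27, and 12 were higher with scaling by total counts and 3 in the model over 60 libraries.

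Of 391 zinc finger genes named ZNF, many of which encode repressors of transposons, 49 were higher (12.5%, against 11.3% of all genes) and 5 lower (1.28%, against 8.34%), or 78 and 20 with the GC correction, with a median log2 fold change of 0.05. With Ctrl60 in place of Ctrl 74 were higher and with 3 surrogate variables 99 were higher and 34 lower. ZNF888 rose by 0.57 and ZNF814 by 0.56, and ZNF593 and ZNF330 fell by 0.20 each. Of 217 solute carriers, 23 were higher (10.6%) and 4 lower (1.84%), or 27 and 15 with the correction and 42 and 2 with scaling by total counts, among them SLC23A1, a vitamin C transporter (9.35 ± 1.05 to 14.4 ± 2.17 CPM, 0.63), and the carnitine transporter SLC22A5 (15.8 ± 0.875 to 19.9 ± 0.802 CPM, 0.34). Ubiquitin-specific proteases had 2 genes in each direction of 49 (4 higher and 5 lower with the correction), with USP16 at -0.47 and USP36 at 0.13.

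Among genes that sense or carry mechanical load, some channels rose and some actin genes fell. Over all genes tested 11.3% were higher and 8.34% lower, and 12.1% and 16.3% with the GC correction. Of 21 mechanosensitive and volume-regulated channels, 4 were higher (19.0%) and none lower (3 and 1, or 14.3% and 4.76%, with the correction). PKD1, the large polycystin of primary cilia, rose from 105 ± 5.46 to 140.1 ± 7 CPM (log2 fold change 0.42, adjusted p = 3e-05), PIEZO1, the stretch-gated cation channel, from 416.1 ± 8.8 to 495 ± 21.4 CPM (0.25, adjusted p = 0.000209), TMEM63A by 0.20 and TMC6 by 0.12. PKD1 and PIEZO1 had microRNA genes inside them on the same strand, and PKD1 has near-identical pseudogene copies, so its count is uncertain. Of 51 genes of actin and its regulators, 13 were lower (25.5%) and 3 higher (20 and 5 with the correction, 39.2% and 9.8%). The lower ones numbered 2 and 5 in the models over 60 and 59 libraries. Those that fell included the actin-sequestering TMSB4X (703.3 ± 27.4 to 591.2 ± 35.7 CPM, -0.25) and the Arp2/3 subunit ACTR3 (-0.23), and those that rose the cofilin phosphatases SSH2 (0.28) and SSH1 (0.18). ACTB itself ranged from 10740 to 12360 CPM in Ctrl and from 10790 to 11630 in hypg9 (-0.02, adjusted p = 0.783, and -0.09 with the correction, adjusted p = 0.0228).

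The lists that follow are to be read against 11.3% higher and 8.34% lower of all genes tested, and 12.1% and 16.3% with the GC correction. Tubulins and their chaperones had 2 higher (10.0%) and 1 lower (5.0%) of 20, shares near those of all genes, but 3 higher and 8 lower (40.0%) with the correction, and the gene lower in both was the tubulin chaperone TBCA (69.7 ± 5.29 to 48.6 ± 3.98 CPM, -0.52). Integrins and their adaptors had 2 higher (8.0%) and none lower of 25, or 4 in each direction (16.0%) with the correction, and those called without it were ITGA5 (0.18) and ITGAL (0.15), the alpha chain of LFA-1. At the nucleus, 1 of 20 genes of the lamina, the LINC complex and the inner membrane was called, the chromatin-binding protein BANF1 (304.9 ± 19.2 to 272.2 ± 9.1 CPM, -0.16), and 7 with the correction (35.0%). LMNB1 and LMNA had log2 fold changes of -0.14 and 0.20 and were not called without it. Nuclear pore proteins had 3 genes in each direction of 31 (9.68% each, near the shares of all genes, and 4 in each with the correction). POM121C (0.27) and POM121 (0.21) were higher and NUP54 (-0.26) was lower. Of 25 cohesin and condensin genes and CTCF, 1 was lower, the condensin subunit NCAPH (-0.14), and 6 with the correction (24.0%). Replication-dependent histones, which lack poly-A tails, had 3 lower (5.08%) and none higher of 59, and 31 lower (52.5%) with the correction and 36 lower with a correction for exon length in its place. H1-3 went from 2041 ± 162 to 1741 ± 163 CPM (-0.23).

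T cell genes moved in either direction by list, against 11.3% higher and 8.34% lower of all genes tested (12.1% and 16.3% with the GC correction). Of 38 genes of the T cell receptor complex and its proximal signalling, 8 were lower (21.1%) and 1 higher (14, or 36.8%, and 1 with the correction). The adaptor THEMIS had a log2 fold change of -0.43 and the phosphatase PTPRC (CD45) of -0.41, both with overlapping groups, the receptor chain gene TRBC2 of -0.30 (149 ± 8.43 to 121 ± 8.7 CPM) and the adhesion receptor CD2 of -0.25, while LAT, which overlaps other genes on its strand, rose by 0.33. LCK, ZAP70 and CD3E had log2 fold changes of -0.03, 0.05 and -0.07 and were not called (LCK was called with the correction, at -0.09). In the models over 60 and 59 libraries 1 and 2 genes of the receptor list were lower, and with 3 surrogate variables 15. In the 14 T cell markers 5 were lower (35.7%) and none higher, and 1 and 2 were lower in the models over 60 and 59 libraries. Of 30 genes of store-operated calcium entry and NFAT, 6 were higher (20.0%) and 1 lower (5 and 3 with the correction), and 1 and 3 were higher in the models over 60 and 59 libraries, with the calcium release channel ITPR3 at 0.17, NFATC2 at 0.13 and the calcineurin subunit PPP3CC at -0.13. Of 31 Notch genes, 4 were higher (12.9%) and 2 lower (6.45%), shares near those of all genes tested (4 and 7 with the correction). The receptors NOTCH3 (170.8 ± 5.14 to 210.6 ± 14.2 CPM, 0.30), NOTCH2 (0.27) and NOTCH1 (0.26) and the coactivator MAML1 (0.21) rose, and the target HES4 (-0.29) and the ubiquitin ligase subunit FBXW7 (-0.15) fell. Of 30 T-lineage and leukaemia transcription factors, RUNX1 was higher (0.19) and 3 were lower (10.0%, a share near that of all genes, and 5 with the correction), among them FLI1 (-0.20) and LEF1 (-0.16).

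Of the heat shock and immediate early lists no gene was higher, against 11.3% of all genes tested higher and 8.34% lower (12.1% and 16.3% with the GC correction). None of the 28 inducible chaperones of the heat shock response was higher and 11 were lower (39.3%, and 15 with the correction), with a median log2 fold change of -0.14. CACYBP fell by 0.34 and HSPH1 by 0.33, and HSPA1B and HSF1 had log2 fold changes of 0.13 and 0.05 and were not called. The chaperones lower numbered 18 with 3 surrogate variables and 3 and 7 in the models over 60 and 59 libraries. HSP90AA1 ranged from 714 to 893.3 CPM in Ctrl and from 534.1 to 800.3 in hypg9 (-0.26, adjusted p = 0.0461, and -0.23 with the correction, adjusted p = 0.0153). Its groups overlapped, with hypg9 libraries 41 and 42 the lowest. HSP90AA1 was no longer called when any 1 of Ctrl libraries 1, 3, 4, 5 and 6 or hypg9 libraries 37, 40, 41 and 42 was left out (highest adjusted p = 0.0954). Of 33 immediate early genes, 3 were lower (GADD45A -0.36, PPP1R15A -0.18 and SRF -0.10) and none higher (6 and 0 with the correction), a lower share of 9.09% near that of all genes, and FOS, EGR1 and JUN had -0.11, -0.15 and 0.08 and were not called. The dual specificity phosphatases had 1 gene in each direction of 17 (5.88% each), DUSP7 (0.18) and DUSP2 (-0.21), and 2 in each with the correction. NF-kB genes had 3 lower (12.5%) and 1 higher of 24, with NFKBIA at -0.16 and NFKBID at 0.29, and 7 and 2 with the correction. Hypoxia genes had 7 lower (26.9%) and 2 higher of 26, or 10 and 2 with the correction (ANKRD37 -0.40, PFKFB3 -0.22, EGLN2 0.34). NRF2 antioxidant genes had 9 lower (25.0%) and 2 higher of 36, or 19 and 1 with the correction, with the superoxide dismutase SOD1 at -0.32, thioredoxin TXN at -0.33 and the NRF2 partner MAFK at 0.25. ATF4 and unfolded protein response genes had 3 lower (7.69%) and 2 higher (5.13%) of 39, with HSP90B1 at -0.27 and CHAC1 at 0.41, but 13 lower (33.3%) and 2 higher with the correction. The BCL2 family had 2 lower (12.5%) and 1 higher (6.25%) of 16, with BID at -0.23 and BCL2L11 at 0.16, and 5 and 1 with the correction. Without the correction the counts of the phosphatase, NF-kB, ATF4 and BCL2 lists rest on 1 to 3 genes in each direction.

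Of 91 kinesin, centromere and spindle genes, 14 were lower (15.4%) and 7 higher (7.69%), against 8.34% and 11.3% of all genes tested. With the GC correction 30 were lower (33.0%) and 6 higher (6.59%), against 16.3% and 12.1%, and in the models over 60 and 59 libraries 1 and 5 were lower. CKAP2, which stabilises microtubules in mitosis, fell from 33.2 ± 4.61 to 22.4 ± 4.47 CPM (log2 fold change -0.56) and HMMR by 0.49, while MAD1L1, of the spindle checkpoint, rose from 3.03 ± 0.382 to 5.1 ± 0.776 CPM (0.74), a gene that overlaps others on its strand. Of 38 centrosomal CEP genes, 1 was higher, CEP295NL within TIMP2 (0.55), and none lower (1 and 2 with the correction, and 12 lower with surrogate variables). Of 49 DNA replication factors, 9 were lower (18.4%) and 2 higher (19, or 38.8%, and 3 with the correction), and 2 and 3 were lower in the models over 60 and 59 libraries. The helicase subunit MCM6 fell by 0.22, and TICRR, a loader of the replication initiation factor CDC45, rose from 85.8 ± 1.37 to 105.6 ± 4.07 CPM (0.30) and the polymerase gene POLE by 0.21.

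Neighbouring exposure times were compared with hypg9 directly, to ask whether the change at 9 min differed from that at 7 and 5 min. Between hypg9 and hypg7, 0 of 16260 genes were called by edgeR's quasi-likelihood test (0.0%), with or without the GC correction, and 0 by DESeq2. Genes at an unadjusted p under 0.05 numbered 544 in edgeR without the correction, 728 with it and 479 in DESeq2. Between hypg9 and hypg5, 7 of 16268 genes were called (0.043%), 1 higher (0.00615%) and 6 lower (0.0369%). The lower ones were RNU6ATAC (log2 fold change of hypg9 against hypg5 -1.11, adjusted p = 0.0377), RNY1 (adjusted p = 0.0495), the Cajal body RNA SCARNA7 (-0.80), the ribosomal protein genes RPS27 (-0.32) and RPL37 (-0.24) and the complex I subunit NDUFS5 (-0.32). The higher one was a copy of a Y RNA at 0.314 CPM (1.40). The 7 genes are named after their values were seen, and with the correction 81 were called (0.498%), 12 higher (0.0738%) and 69 lower (0.424%).

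Each of the 3 exposure times was also compared with the same Ctrl libraries, so the values that follow share their controls and are given side by side. At 5 min 705 genes were higher and 276 lower (4.33% and 1.69%), at 7 min 1091 and 1017 (6.64% and 6.19%), and at 9 min 1849 and 1366. RNU5A-1 had log2 fold changes of -1.02, -1.79 and -2.05 at 5, 7 and 9 min. MT-ND6 had 1.29, 0.76 and 0.79. Cytosolic ribosomal protein genes had medians of -0.12, -0.19 and -0.19, with 8, 44 and 58 members lower, and oxidative phosphorylation genes -0.11, -0.16 and -0.17, with 5, 35 and 44 lower. The mitochondrial mRNAs had medians of 0.48, 0.40 and 0.29, with 11, 11 and 10 members higher. In the direct comparison RNU5A-1 differed between hypg9 and hypg7 by -0.27 ± 0.25 SE (adjusted p = 1) and MT-ND6 by 0.02 ± 0.12 (adjusted p = 1). Ctrl60 against Ctrl gave 1 gene higher and 1 lower of 16109 (0.00621% each).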

How the data were processed

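RNA of Jurkat cells was sequenced as stranded, rRNA-depleted, paired-end libraries. The deposited values are raw counts of read pairs per gene, which the authors made with Trim Galore 0.6.5, STAR 2.7.3a and featureCounts (2.0.1 in the submitters' processing notes, 2.0.3 in the file header) on GRCh38 with Ensembl 104. Counts were tested with edgeR 4.0.16 (R 4.3.3) by the quasi-likelihood test with TMM scaling, filterByExpr at a minimum count of 10 and Benjamini-Hochberg adjustment at 0.05, on the 6 libraries of each of both groups. The GC correction used per-library lowess offsets (span 0.3, prior count 2). GC content, type and position came from GENCODE 29, another release than the counting on the same build, which gave a GC content for 98.7% of the genes tested. Sequences are from its transcripts. CPM used the counts of each library on the genes tested, scaled by TMM factors. The summed levels of cell type markers used the total counts of each library instead. The scripts were tested on simulated data.

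The members and the 55 gene lists were chosen with earlier results of these data known. Genes were named by rule: the 6 most abundant past 2-fold and the 6 largest changes at 10 CPM or more in each direction, 2 in each direction that depended on the GC correction, ACTB, GAPDH and HSP90AA1, and up to 2 called members of each list in each direction. Any further gene was named with its values known. All 30 pairs of libraries within a group differed beyond sampling noise. Library totals were 27.31 to 40.27 M counts (M, 1000000). Alternatives were DESeq2 1.42.0, surrogate variables (sva 3.50.0), other scalings, filters, controls and corrections, and leaving out each library. Some genes and sequences are not reported here.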

Additional observations from a re-analysis of the deposited data

Results flagged for a closer look

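Of 76 groups of 6 values examined, 3 held a library that stood far from the others, where chance gives about 1 in 20, or 3.8. The antisense lncRNA AC116914.1 was at 1.58 CPM in hypg9 library 42, above the other hypg9 libraries by 0.627 of the range of the group. SLFNL1-AS1 was at 18.8 CPM in the same library, with a gap of 0.7 of the range. Ctrl library 2 held 27.31 M counts (M, 1000000), the lowest of its group, with a gap of 0.746 of the range.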

How the results depend on the processing

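No gene called in the reported fit was called in the opposite direction under any alternative, but the balance of upward and downward calls turned with DESeq2, with 3 surrogate variables, with glmTreat and with each form of the GC correction. In the bin of highest GC content it was 575 to 114 without a correction and 413 to 682 with the GC correction of the report. Upward calls numbered 1849 and ranged from 1430 to 1792 when 1 library was left out, and downward calls numbered 1366 and ranged from 952 (without hypg9 library 37) to 1552. One model over all 60 libraries of the experiment gave 1110 upward and 538 downward calls. In it hypg15 library 75 held no mitochondrial counts and had counts on 11035 of the 16385 genes, and without this library 1728 and 883 genes were called. Downward calls numbered 908 with scaling by total counts (2531 upward), 3149 with 3 surrogate variables, 2674 with the GC correction, 2659 with GC offsets from deviations, 2617 with the GC content of the longest transcript and 2887 with the correction and Ctrl60 in place of Ctrl, against 1366 without a correction. The split of upward to downward calls was 1647 to 1588 with RLE size factors and 1601 to 1707 with DESeq2. Without a filter on low counts 130 genes were past 2-fold upwards and 142 downwards, and with glmTreat 0 and 5. Leaving out 1 library gave 57 to 91 genes past 2-fold upwards (91 without Ctrl library 2) and 58 to 94 downwards (94 without hypg9 library 42). For hypg9 against hypg5, upward calls numbered 3 without a filter, 0 with total counts, 11 with DESeq2 and 12 with the GC correction, and downward calls 48, 3, 93 and 69. The cause of these differences was not tested. The alternatives without hypg15 library 75, with the GC content of the longest transcript and with the correction joined to Ctrl60 were chosen after seeing the data. Genes near the detection limit carry the widest uncertainty, since most genes past 2-fold were under 1 CPM. No paired analysis was possible because each library number belongs to 1 group only.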
